A study of Mus musculus with 9 samples.

Results

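The genes of interleukin 6 and interleukin 10 signalling through Stat3 were measured in microglia sorted from mouse brain 1 day after a lesion that models neuromyelitis optica. They are the 9 genes Il6, Osm, Il10, Il6ra, Il6st, Il10ra, Il10rb, Stat3 and Socs3, chosen by symbol from the 23238 symbols of the count files. Of these, 8 had enough reads to be tested, among 12292 genes tested in all, and Il10 had not. The cells were sorted as positive for CD45, CD11b and P2ry12 from wild-type female C57BL/6N mice of 12 weeks, 3 libraries per group, and each library held the cells of 3 pooled mice. The Normal group had no treatment. In the NMO group the striatum of 1 side was injected with IgG from patients, directed against aquaporin-4, and with human complement. The NMO+CL group had the same injection and, 6 h before it, clodronate liposomes into the peritoneum, which deplete monocytes and macrophages of the circulation. No group with control IgG or with empty liposomes was analysed here, so antibody, complement and injection cannot be told apart, nor clodronate from its carrier.

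Interleukin 6 binds its receptor chain Il6ra, and the pair recruits the signal transducer gp130, the product of Il6st, which other cytokines of the family such as oncostatin M also use. Interleukin 10 binds Il10ra together with Il10rb, a chain shared with related cytokines. Both complexes work through Janus kinases that phosphorylate Stat3, a transcription factor that induces Socs3. The Socs3 protein binds gp130 and limits signalling by interleukin 6, while the interleukin 10 receptor is largely insensitive to it, and in microglia and macrophages interleukin 10 is known for restraining inflammatory gene expression.

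Each library held between 5788234 and 7837219 counts of reads from the 3′ ends of transcripts, so that a count of 0 allows up to 0.359 to 0.505 CPM (the usual count of reads for a gene relative to library size, with sizes adjusted by TMM). A gene was called changed at an adjusted p under 0.05 in the quasi-likelihood test of edgeR, adjusted by Benjamini and Hochberg over all genes tested. The microglia markers were detected in every library, but their summed level was 34170 to 38815 CPM in Normal, 29414 to 34234 after the injection and 19906 to 27559 when clodronate preceded it, and 7 of 10 were called lower in NMO+CL than in Normal. Among them was P2ry12, a marker of the sort itself, with a mean level of 2443 CPM in untreated mice, 1648 in NMO and 353 in NMO+CL. In bulk RNA, fewer cells of a type and less RNA per cell cannot be told apart.

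Of the 8 tested members, 4 were called in NMO+CL against Normal, where 9.23% of all genes tested were called. Stat3 and Socs3 were higher, by 2.03-fold and 2.25-fold (4.79% of genes were called higher), and the ligand-binding receptor chains Il6ra and Il10ra were lower, by 2.01-fold and 1.79-fold (4.43% were called lower). In neither single step was a member called: 0 of 8 in NMO against Normal, where 0.496% of genes were called, and 0 of 8 in NMO+CL against NMO, where 1.59% were. At an unadjusted p under 0.05 edgeR gave 2 members in the first step, Stat3 and Socs3 (against 9.51% of genes), and 3 in the second, Il6ra, Il6st and Il10ra (against 12.4%). Both DESeq2 and limma-voom called 0 members in each step, and in NMO+CL against Normal 5 members and 22.3% of genes had such an unadjusted p. The steps share the NMO libraries, so their values are not independent of each other.

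**Figure D1:**
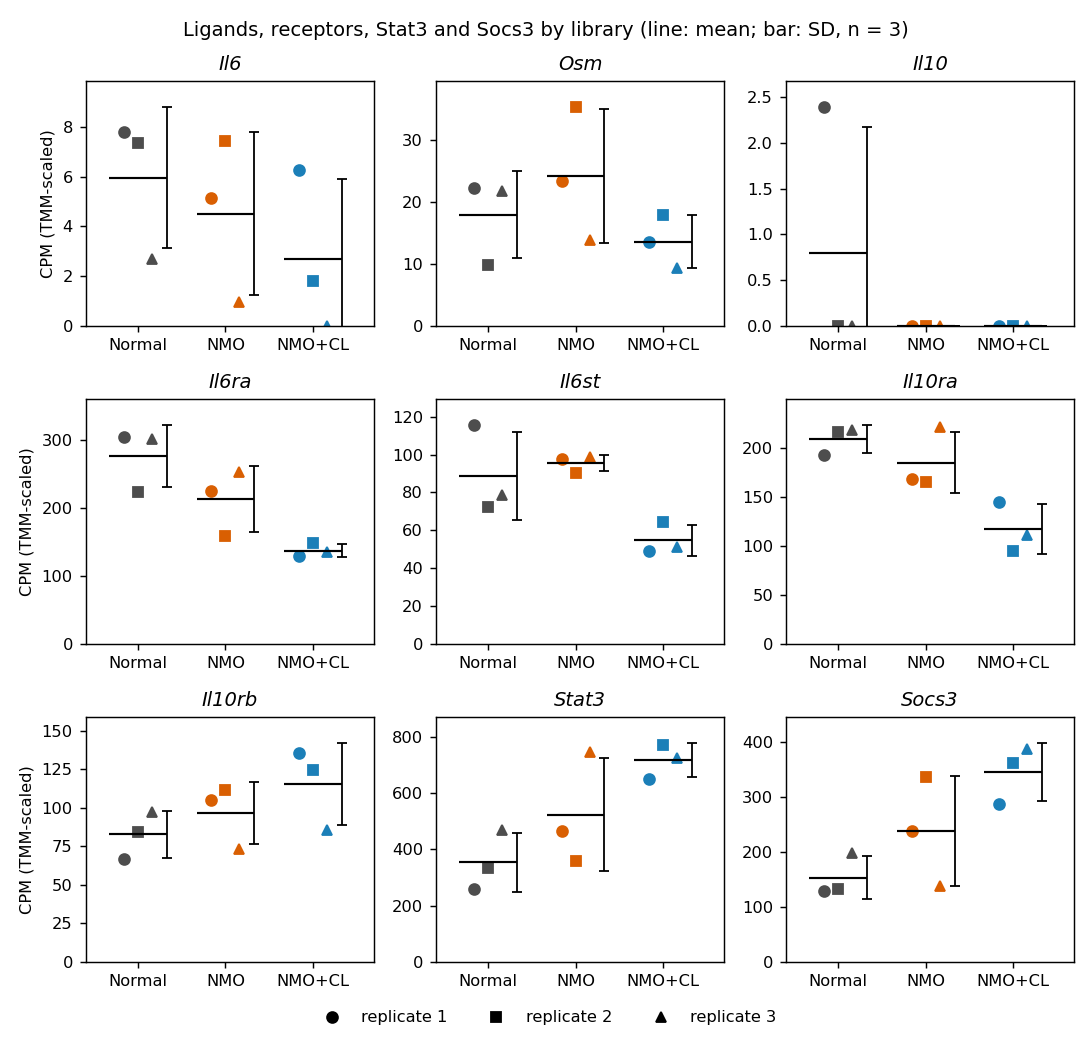
CPM of each of the 9 members in each library, by group, with a separate linear axis per gene. Points are libraries, horizontal bars are group means and vertical bars are SD (n = 3), cut at 0 where they would pass below it. The 3 NMO+CL libraries lie apart from the 3 Normal libraries, above them for Stat3 and Socs3 and below them for Il6ra, Il6st and Il10ra.

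The promoters of the intracellular members that rose are shown because Stat3 binds DNA at a palindrome, TTCNNNGAA, and Socs3 is a known target of it. RefSeq promoter windows (GRCm38.p6) were matched for 5 of the 9 members, Il6, Il6ra, Il6st, Stat3 and Socs3. The 250 bases before the RefSeq start of Socs3, chr11:117969367-117969616, and of Stat3, chr11:100939541-100939790, both on the minus strand, read as follows, with matches to the palindrome in capitals.
Socs3: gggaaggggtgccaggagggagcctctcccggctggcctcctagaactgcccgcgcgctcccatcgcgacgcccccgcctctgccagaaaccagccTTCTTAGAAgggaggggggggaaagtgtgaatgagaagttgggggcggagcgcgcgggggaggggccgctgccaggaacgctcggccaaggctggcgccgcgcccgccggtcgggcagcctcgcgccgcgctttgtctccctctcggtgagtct
Stat3: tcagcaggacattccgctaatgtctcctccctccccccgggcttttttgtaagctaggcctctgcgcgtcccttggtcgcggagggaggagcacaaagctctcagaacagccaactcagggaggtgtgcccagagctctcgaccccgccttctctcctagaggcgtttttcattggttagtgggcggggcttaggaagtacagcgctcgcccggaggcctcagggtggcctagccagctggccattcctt
The Socs3 window held 1 match, TTCTTAGAA, at chr11:117969512-117969520, and none was found in the windows of Il6, Il6ra, Il6st and Stat3. The palindrome reads the same on both strands, and 8.3% of 32851 promoter windows of 300 bases (250 before to 50 after a start) held it. The RefSeq start used for Socs3, base 117969366, lies upstream of the first base of its coding transcript in GENCODE M21, 117969186. A match of these letters is a description of the sequence, and binding was not measured.

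The ligands were expressed at low levels and none was called. Il6 (chromosome 5, 30013114 to 30019981, plus strand) had 7.81, 7.37 and 2.69 CPM in Normal, 5.15, 7.42 and 0.961 in NMO, and 6.27, 1.78 and 0 in NMO+CL. These are 49, 49 and 16 reads, then 41, 62 and 6, then 43, 11 and 0. Normal and NMO each had 1 library well below its others, and NMO+CL had 1 well above its others. The groups overlapped, and the log2 fold change of NMO+CL against Normal was -1.14 with a 95% interval of -3.74 to 1.46 (adjusted p = 0.690). Leaving out NMO+CL replicate 1 made it -2.72 and leaving out NMO+CL replicate 3 made it -0.56, the extremes of the 16 alternatives, none of which called it. Libraries of 1 group differed from each other by more than the group means did. Osm, the gene of oncostatin M (chromosome 11, 4236420 to 4241026, plus strand), had 22.3, 9.78 and 21.7 CPM in Normal, 23.4, 35.3 and 13.8 in NMO, and 13.6, 17.8 and 9.29 in NMO+CL. Its highest value was in NMO replicate 2 and its lowest in an NMO+CL library, and all groups overlapped. The log2 change was 0.43 ± 0.46 (SE) in NMO against Normal (adjusted p = 0.891), and 0.05 without NMO replicate 2. Adding clodronate (NMO+CL against NMO) gave -0.83 ± 0.46 (adjusted p = 0.489).

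Il10 (chromosome 1, 131019845 to 131024974, plus strand) was found in 1 of 9 libraries, Normal replicate 1, with 15 reads or 2.39 CPM. The other 8 libraries had 0 reads, all 6 of the injected mice included. Transcripts of the cytokine were therefore not detectable in NMO or NMO+CL above the limit that a count of 0 allows, and no fold is given.

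The receptor chain for interleukin 6, Il6ra (chromosome 3, 89864059 to 89913196, minus strand), was lower after the injection with clodronate. Its level was 304, 223 and 301 CPM in Normal, 225, 159 and 253 in NMO, and 129, 148 and 134 in NMO+CL. Every NMO+CL library was below every library of both other groups, while NMO and Normal overlapped. The log2 fold change was -1.01 ± 0.21 in NMO+CL against Normal (95% interval -1.45 to -0.57, adjusted p = 0.00494), and Il6ra was called in all 16 alternative fits, with an adjusted p of at most 0.0311. In NMO against Normal the change was -0.38 ± 0.21 (adjusted p = 0.620) and in NMO+CL against NMO -0.63 ± 0.21 (adjusted p = 0.171). The last 500 bases of the transcript share stretches of 50 to 55 bases with 15 other genes, and the counts included reads with multiple alignments, so part of its count may come from these. At its 5′ end Il6ra overlaps an exon of Gm42809 on the other strand.

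Il6st, the gene of gp130 (chromosome 13, 112464070 to 112510086, plus strand), had 116, 72.1 and 78.4 CPM in Normal, 97.4, 90.5 and 98.8 in NMO, and 49.2, 64.2 and 50.9 in NMO+CL. The NMO+CL libraries were again below all others, and the NMO libraries lay within the range of Normal. The change was 0.11 ± 0.23 on the log2 scale in NMO against Normal (adjusted p = 0.967). With clodronate added to NMO it was -0.80 ± 0.24 (interval -1.30 to -0.31, adjusted p = 0.112), and against Normal -0.70 ± 0.24 (adjusted p = 0.0755). Neither passed the test, and none of the 16 alternatives called Il6st against Normal, where the lowest adjusted p was 0.0521.

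Il10ra, the ligand-binding chain for interleukin 10 (chromosome 9, 45253837 to 45269149, minus strand), was measured at 193, 216 and 218 CPM in Normal, 168, 165 and 221 in NMO, and 145, 95.1 and 111 in NMO+CL. All NMO+CL libraries were below all libraries of both other groups, which overlapped each other. The log2 fold change of NMO+CL against Normal was -0.84 ± 0.21 (interval -1.28 to -0.40, adjusted p = 0.0155). The call was lost when Normal replicate 2 (adjusted p = 0.0613), Normal 3 (0.0649) or NMO+CL 2 (0.0971) was left out. The step from NMO to NMO+CL gave -0.66 ± 0.21 (adjusted p = 0.143), and in NMO against Normal -0.18 ± 0.21 (adjusted p = 0.910). Il10rb, the chain shared within the interleukin 10 family (chromosome 16, 91406164 to 91425834, plus strand), went the other way in its means and was not called. It had 66.9, 84.6 and 97.4 CPM in Normal, 105, 111 and 73.5 in NMO, and 136, 125 and 85.4 in NMO+CL. The groups overlapped, and NMO+CL against Normal gave 0.48 ± 0.24 (interval -0.04 to 0.99, adjusted p = 0.270). Il10rb overlaps another annotated gene, Gm21970, on the same strand, with which its reads could be shared.

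**Figure D2:**
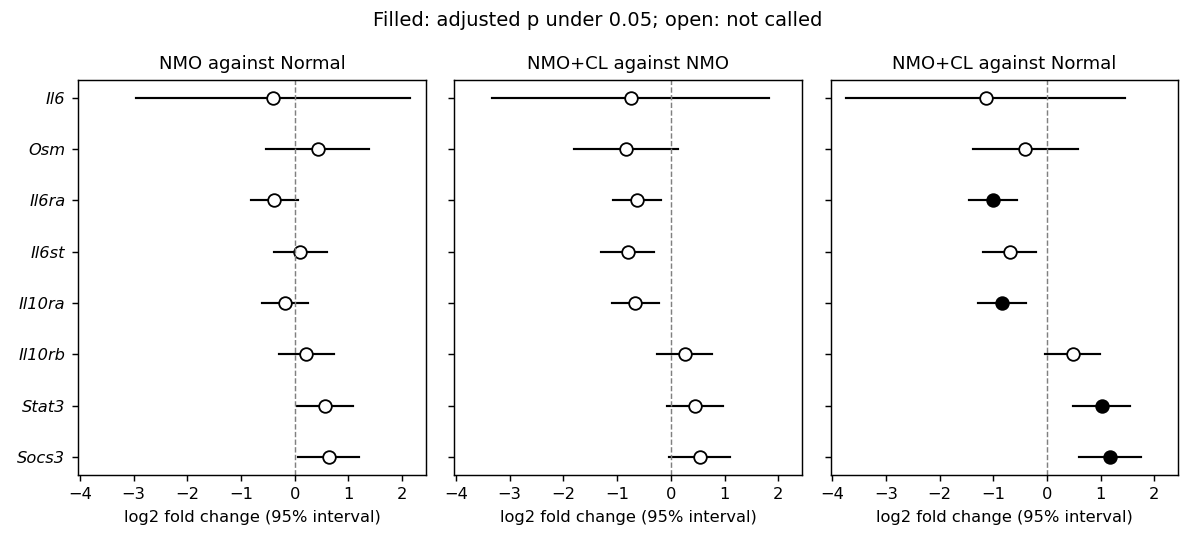
Log2 fold changes of the 8 tested members in NMO against Normal, NMO+CL against NMO and NMO+CL against Normal, on a log2 axis. Points are edgeR estimates and bars are 95% intervals, not adjusted for the number of genes, and filled points mark the calls at an adjusted p under 0.05. The 4 filled points are Il6ra, Il10ra, Stat3 and Socs3 in NMO+CL against Normal, with log2 fold changes of -1.01, -0.84, 1.02 and 1.17.

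Stat3 (chromosome 11, 100885098 to 100939540, minus strand) was higher in NMO+CL than in Normal. Its level was 259.9, 332 and 469 CPM in Normal, 465, 359.6 and 749 in NMO, and 653, 773 and 727 in NMO+CL. All NMO+CL libraries exceeded all Normal libraries, NMO replicate 3 was as high as the NMO+CL group, and NMO replicates 1 and 2 lay within the range of Normal. The log2 fold change was 1.02 ± 0.25 in NMO+CL against Normal (interval 0.49 to 1.55, adjusted p = 0.0150). It was no longer called when Normal replicate 1 (adjusted p = 0.0918), Normal 2 (0.0716) or NMO+CL 2 (0.0581) was left out. In NMO against Normal it was 0.57 ± 0.25 (adjusted p = 0.474), and 0.21 without NMO replicate 3 (adjusted p = 0.881). The step from NMO to NMO+CL gave 0.45 ± 0.25 (adjusted p = 0.489). The 3′ end of Stat3 overlaps that of Stat5a on the other strand, and the use of strand in counting is not given in the sources used here. Stat5a had 129 to 277 reads per library and Stat3 1631 to 4773.

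Socs3, the feedback inhibitor (chromosome 11, 117966079 to 117970047, minus strand), followed the same order of group means. It had 128, 132 and 198 CPM in Normal, 237, 336 and 137 in NMO, and 286, 361 and 386 in NMO+CL. The NMO+CL libraries were all above Normal, and NMO replicate 3, which had the highest Stat3 of its group, had the lowest Socs3 of it. The log2 fold change of NMO+CL against Normal was 1.17 ± 0.27 (interval 0.60 to 1.75, adjusted p = 0.0108). The call was lost without Normal replicate 1 (adjusted p = 0.0597) or Normal replicate 2 (0.0644). NMO against Normal gave 0.63 ± 0.27 (adjusted p = 0.465), and 0.29 without NMO replicate 2 (adjusted p = 0.825). NMO+CL against NMO gave 0.54 ± 0.27 (adjusted p = 0.438).

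Over the members, the libraries of NMO+CL and Normal did not overlap for 5 of 8, against 28.7% of all genes tested. These were 3 lower, against 14.9% of genes, and 2 higher, against 13.8%. In the step from NMO to NMO+CL they did not overlap for 3 of 8, against 17.1% of genes, and all 3 were lower, against 9.22%. In NMO against Normal they overlapped for all 8, against 17.4% of genes without overlap. A looser rule was also applied, a change of 1.5-fold with a p under 0.05 that is not adjusted. By this rule, 1 member passed in NMO against Normal, Socs3, which was higher (7.96% of genes passed, 5.2% higher). In the step from NMO to NMO+CL 3 passed, Il6ra, Il6st and Il10ra, all lower (10.7% of genes, 6.65% lower). In NMO+CL against Normal 5 passed, the same 3 lower (10.2% of genes) and Stat3 and Socs3 higher (9.9%), where 20.1% of genes passed in all. The median log2 change of all genes was -0.01 in each comparison. Whether the second step differed from the first was tested in the same fit, a contrast chosen after the values were seen. None of the 8 members was called, and Il6st had the smallest p, with a difference of -0.91 (interval -1.75 to -0.07, unadjusted p = 0.0347, adjusted p = 0.869). At an unadjusted p under 0.05 this contrast gave 701 genes, and at an adjusted p under 0.05 it gave 6, or 0.0488% of those tested.

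**Figure D3:**
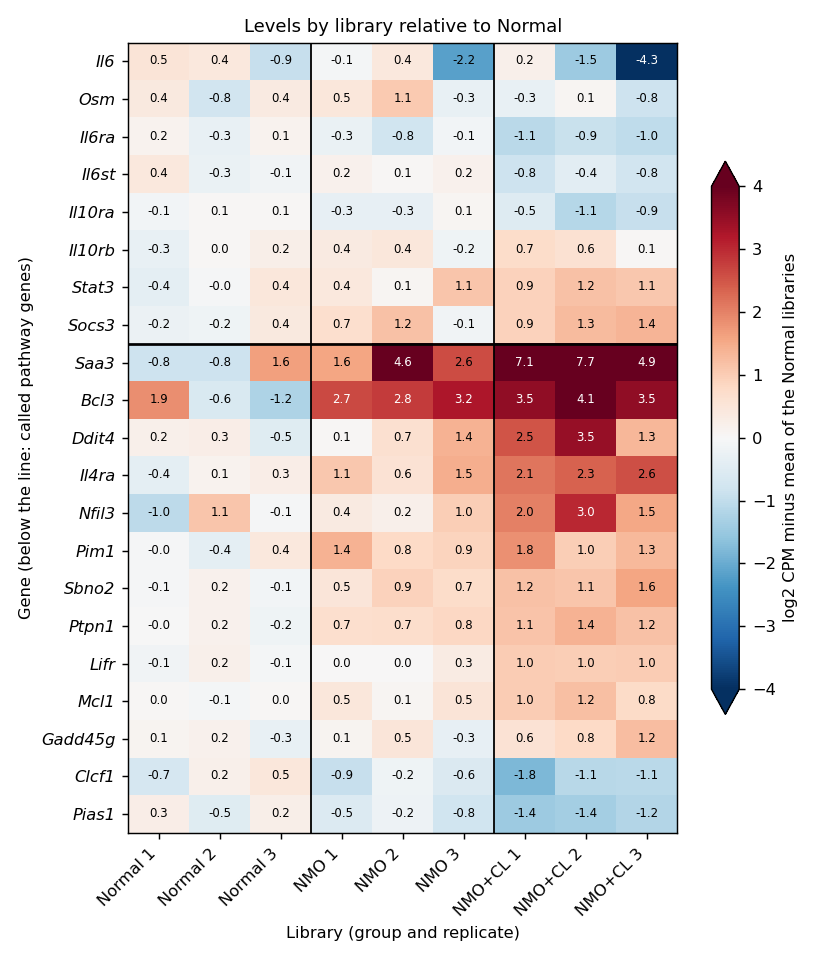
Log2 CPM in each library minus the mean of the 3 Normal libraries, with rows for genes and columns for libraries. The tested members stand above the line and the called genes of the pathway lists below it. Colour and printed value give the same difference, computed with a prior count of 2, except that the colour scale stops short of the largest differences. In NMO+CL the receptor chains Il6ra, Il6st and Il10ra are below 0 in all 3 libraries. Stat3, Socs3 and the receptor chain Il10rb are above 0 in all 3, while the NMO libraries differ among themselves.

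Markers of other cells were read in the same libraries, and few of them were called. The summed neutrophil markers were 41.5 to 536 CPM in Normal, 102 to 384 in NMO and 270.1 to 1314 in NMO+CL. Most of this sum was S100a8 (means 72.0, 86.3 and 281 CPM) and S100a9 (77.1, 100.2 and 315). All 9 had a higher mean in NMO+CL than in Normal, but to different extents, as in Camp (14.5 against 13.2 CPM) and Mmp9 (11.3 against 2.14). At most 1 of 9 was at 0 in any library. In NMO+CL against Normal 0 of 9 were called by edgeR and by DESeq2, and 2 by limma-voom. EdgeR gave 2 at an unadjusted p under 0.05, against 22.3% of all genes. NMO+CL replicate 1 was the library with 1314 CPM. Without it, the change against Normal was 1.09 for Stat3 (adjusted p = 0.0187) and 1.29 for Socs3 (adjusted p = 0.00973). The remaining NMO+CL libraries still held 270.1 and 507 CPM of neutrophil markers, and Normal replicate 1 held 536. This fit therefore cannot tell what part neutrophil RNA had in these changes. The summed monocyte markers were 31.6 to 59.9, 63.7 to 131 and 53.3 to 111 CPM in the same order of groups. Of the 10, 1 was called higher in NMO+CL than in Normal, and up to 3 were at 0 in a library. The largest means in NMO+CL were those of Chil3 (5.33, 8.32 and 24.9 CPM by group) and Fn1 (4.41, 6.97 and 24.2). Ccr2 (13.4, 15.3 and 5.599), Vcan (6.06, 5.02 and 2.02) and Plac8 (5.42, 9.85 and 4.17) had lower means in NMO+CL than in Normal. The other monocyte markers had higher means in NMO+CL than in Normal. Border macrophage markers summed to 308 to 481, 215 to 365 and 437 to 691 CPM, with 1 of 7 tested called higher. Most of this sum was Cbr2 (means 199.7, 105 and 276 CPM) and Stab1 (171, 189 and 290.4). In NMO, Cbr2 ran from 0 to 159 CPM, with 1 library at 0. F13a1 rose in its means (1.27, 3.95 and 7.11 CPM), without overlap between Normal and NMO+CL, while Siglec1 had 0.37, 0 and 1.85 and Ms4a7 0.67, 0.88 and 0.75. Mrc1 (15.7, 11.1 and 14.3), Lyve1 (8.03, 2.81 and 6.14) and Pf4 (4.84, 0.88 and 2.36) had lower means in NMO+CL than in Normal. Cd163 had 0 to 11 reads in Normal and was at 0 in all 6 libraries of injected mice. Lymphocyte markers summed to 13.2 to 20.7, 9.61 to 21.6 and 4.37 to 15.4 CPM. Markers of astrocytes, oligodendrocytes and endothelium went down in sum without overlap between groups, from 68.0 to 124 CPM in Normal through 60.1 to 64.8 in NMO to 49.1 to 54.0 in NMO+CL, and 1 of 7 tested was called lower in NMO+CL than in Normal. Most of this sum was the endothelial gene Pecam1, with means of 51.0, 34.0 and 34.8 CPM in that order, while the astrocyte gene Aqp4 had means of 5.06, 8.49 and 7.66 CPM. Early genes of tissue dissociation, of which Fos is also in the list of Stat3 targets, overlapped between groups at 4050 to 5766, 3948 to 5254 and 4510 to 4798 CPM in sum. Of the 10, edgeR called 1 higher in NMO+CL than in Normal, Ier2, with means of 13.7 and 31.8 CPM in Normal and NMO+CL and no overlap (log2 change 1.21, adjusted p = 0.0354), while DESeq2 called 2 and limma-voom 0. The part of these markers in the changes of the members, and that of the fall of the microglia markers, was not tested.

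The other genes of the pathway were taken from 9 lists of 82 genes, of which 66 were tested. Like the members, the lists were chosen with earlier results of these data known. The shares and medians of lists given here and below therefore describe them and are no independent test. In NMO+CL against Normal 11 were called higher and 2 lower, 19.7% of those tested against 9.23% of all genes, and the median log2 change of the 66 was 0.21 against -0.01 for all genes. Their median was 0.24 in NMO against Normal and 0.08 in NMO+CL against NMO. From NMO to NMO+CL 4 were called, all higher, or 6.06% against 1.59% of all genes. In NMO against Normal edgeR called 0, against 0.496% of all genes, with 10 at an unadjusted p under 0.05, against 9.51% of all genes. DESeq2 called 4 there, and its count over all genes is given in the closing section. Limma-voom called 2, and its count over all genes is not reported here.

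Among ligands and receptors of the interleukin 6 family, Lifr, the receptor for leukaemia inhibitory factor that pairs with gp130, rose. It had 105, 133 and 109 CPM in Normal, 117, 116 and 144 in NMO, and 233, 227 and 235 in NMO+CL. The NMO+CL libraries were above all others, opposite in direction to Il6ra and Il6st. Its log2 change was 1.00 ± 0.19 against Normal (adjusted p = 0.00261), called in all 16 alternatives. Against NMO it was 0.88 ± 0.19 (adjusted p = 0.0252), a call lost without NMO 1 (adjusted p = 0.122), NMO 2 (0.0839) or NMO+CL 2 (0.105). Clcf1, a ligand of the same family, fell by 1.39 on the log2 scale in NMO+CL against Normal (adjusted p = 0.0348), and without Normal replicate 3 its adjusted p was 0.185. It was called in 10 of 16 alternatives, and not without Normal replicate 2 (0.122), NMO+CL 1 (0.113) or NMO+CL 2 (0.0785), with limma-voom (0.0587) or with library totals alone (0.0515) either. The partner chains Osmr, for oncostatin M, and Il11ra1, for interleukin 11, were not called, with log2 changes of 1.58 ± 2.28 (adjusted p = 0.783) and -0.39 ± 0.29 (adjusted p = 0.503) in NMO+CL against Normal. Of the interleukin 10 family, no ligand passed the filter on low counts.

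Between receptor and nucleus, the Janus kinases were not called. Jak1, which serves both receptors, had a log2 change of 0.05 ± 0.18 in NMO+CL against Normal (adjusted p = 0.933), and edgeR, DESeq2 and limma-voom each called 0 of 4 kinases in each comparison. At an unadjusted p under 0.05, edgeR gave 1 of the 4, in NMO+CL against Normal, where 22.3% of all genes had such a p. Of 6 STAT genes tested, Stat3 alone was called in NMO+CL against Normal, where 9.23% of all genes were, while Stat6 had 0.22 ± 0.20 (adjusted p = 0.602). Whether Stat3 differed from the other STAT genes was not tested. Of 16 inhibitors of STAT signalling, Socs3 and the phosphatase Ptpn1 rose and Pias1 fell, where 4.79% of all genes were called higher and 4.43% lower. Ptpn1, which dephosphorylates Janus kinases, had 523, 593 and 464 CPM in Normal, 830, 849 and 939 in NMO, and 1159, 1370 and 1190 in NMO+CL, with no overlap between any groups. Its log2 change against Normal was 1.24 ± 0.16 in NMO+CL (adjusted p = 1.39e-04) and 0.73 ± 0.16 in NMO (adjusted p = 0.0565). The latter was called in 5 of 16 alternatives, among them DESeq2 (adjusted p = 4.42e-04) and limma-voom (0.0250). Pias1, an inhibitor of STAT binding to DNA, fell from 61.1 ± 16.3 CPM in Normal to 23.5 ± 2.22 in NMO+CL (mean ± SD, n = 3, log2 change -1.38, adjusted p = 0.00584).

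Downstream, 5 of 21 tested Stat3 target genes were called higher in NMO+CL than in Normal and none lower, where 4.79% of all genes were called higher, and the median log2 change of the list was 0.60 against -0.01 for all genes. The list median was 0.57 in NMO against Normal and 0.14 in NMO+CL against NMO. They were Socs3 itself, Bcl3, Pim1, Mcl1 and Saa3. Mcl1, which protects cells from apoptosis, had 311, 287 and 312 CPM in Normal, 419, 320 and 430 in NMO, and 618, 704 and 519 in NMO+CL. Its change in NMO+CL against Normal was 1.02 ± 0.18 (adjusted p = 0.00166). Bcl3, a nuclear modifier of NF-κB, had 51, 8 and 4 reads in Normal and 183, 244 and 165 in NMO+CL, with a log2 change of 3.20 ± 0.67 (adjusted p = 0.00505) whose size the low Normal counts set: it was 5.01 without Normal replicate 1 and 2.73 without Normal replicate 3. The kinase Pim1 rose by 1.39 ± 0.35 (adjusted p = 0.0178), a call lost without Normal 1 (adjusted p = 0.0726), Normal 2 (0.0972) or NMO+CL 1 (0.0900). Saa3, an acute-phase protein, had 0, 0 and 8 reads in Normal and 508, 655 and 96 in NMO+CL, and limma-voom did not call it (adjusted p = 0.0964). Against NMO its log2 change was 3.53 (adjusted p = 0.0420), called in 9 of 16 alternatives. That call was lost with DESeq2 (0.202) and limma-voom (0.0989), and without Normal 2 (0.0506), NMO 1 (0.138), NMO 3 (0.113), NMO+CL 1 (0.0686) or NMO+CL 2 (0.234). Ccnd1 and Junb, well-expressed targets, were not called, with log2 changes of 0.60 (adjusted p = 0.0541) and 0.04 (adjusted p = 0.961).

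Of 14 tested genes that interleukin 10 induces in macrophages, 6 were called higher in NMO+CL than in Normal, again against 4.79% of all genes, and the median log2 change of the list was 1.10 against -0.01. It was 0.51 in NMO against Normal and 0.40 in NMO+CL against NMO. Besides Bcl3, which stands in both lists, they were Il4ra, Sbno2, Ddit4, Nfil3 and Gadd45g. Il4ra, the receptor chain for interleukin 4, had 145, 209 and 231 CPM in Normal, 407, 285 and 527 in NMO, and 838, 976 and 1134 in NMO+CL, and the 3 groups did not overlap. Its log2 change was 2.33 ± 0.24 against Normal (adjusted p = 1.53e-05) and 1.27 ± 0.23 against NMO (adjusted p = 0.00877, and 0.0505 without NMO replicate 1). NMO against Normal gave 1.06 (adjusted p = 0.0501), and 8 of 16 alternatives called it, with adjusted p values of 0.00118 by DESeq2, 0.0431 by limma-voom and 0.0278 with the replicate number as a block. Sbno2, a corepressor induced by interleukin 10 through Stat3, had 79.8, 93.0 and 76.7 CPM in Normal, 117, 157 and 137 in NMO, and 187, 179 and 251 in NMO+CL. It too had no overlap between groups, and rose by 1.30 ± 0.21 in NMO+CL against Normal (adjusted p = 7.60e-04). The transcripts of the cytokine itself had 0 reads in the same NMO+CL libraries, as given above.

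Ddit4, an inhibitor of mTOR signalling, rose by 2.65 ± 0.42 in NMO+CL against Normal (adjusted p = 7.46e-04), with NMO+CL libraries spread over 430.4, 839 and 189 CPM and a change of 2.004 without NMO+CL replicate 2. Against NMO it rose by 1.89 (adjusted p = 0.0258), a call lost without NMO 1 (0.122), NMO 2 (0.0584) or NMO+CL 2 (0.191). Nfil3, a repressor that interleukin 10 induces, rose by 2.12 ± 0.62 in NMO+CL against Normal (adjusted p = 0.0373), and the call was lost without Normal 1 (0.146), Normal 3 (0.149) or NMO+CL 2 (0.257) and with limma-voom (0.0617), while the change was 2.90 without Normal 2 and 1.59 without NMO+CL 2. Gadd45g rose by 0.89 ± 0.23 (adjusted p = 0.0226) and was called in 11 of 16 alternatives, not without any 1 of the Normal libraries (0.0565, 0.0502 and 0.120), NMO+CL replicate 2 (0.0524) or NMO+CL replicate 3 (0.0923). The genes Zfp36 and Il21r of this list had log2 changes of -0.74 (adjusted p = 0.297) and -0.59 (adjusted p = 0.218) and were not called.

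**Figure D4:**
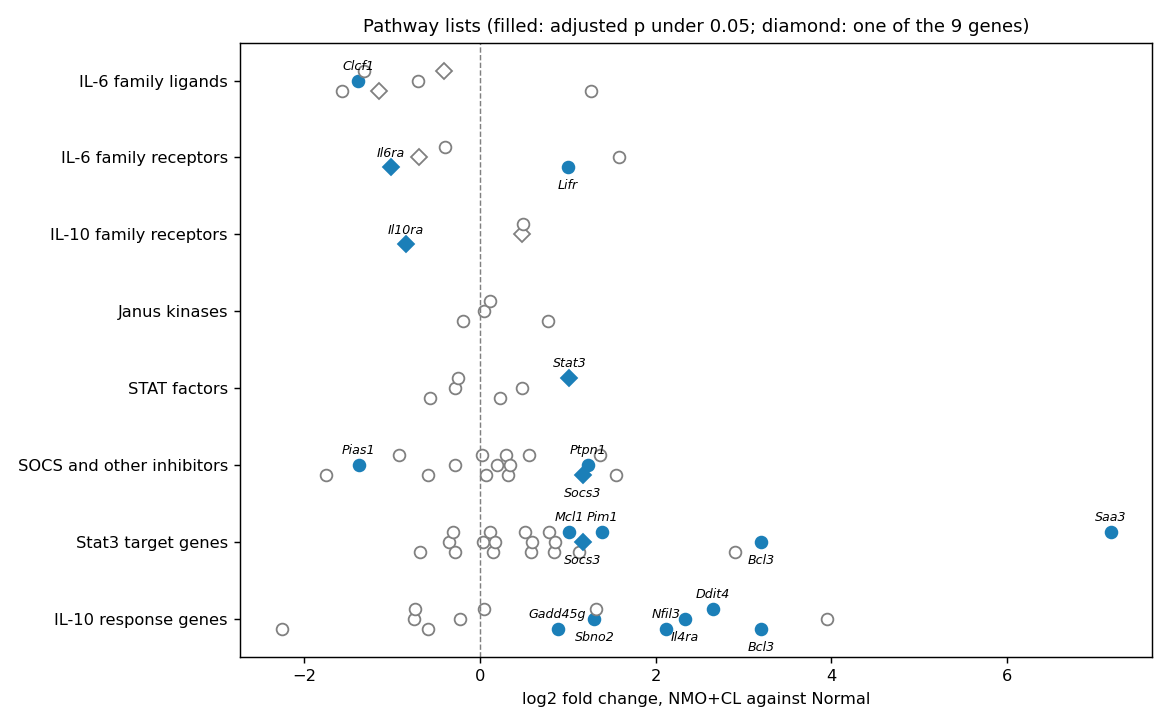
Log2 fold change of NMO+CL against Normal for the tested genes of each of the pathway lists, 1 row per list, members included. Points are genes, filled where called at an adjusted p under 0.05, and diamonds are members. The 5 filled Stat3 targets and the 6 filled interleukin 10 response genes lie to the right of 0, and the list medians are 0.60 and 1.10.

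The genes whose levels over the 9 libraries were most like those of each called member were found among 8840 genes with a mean of at least 50 reads, by the root mean square difference of centred log2 CPM. For Il6ra they were Trem2, at 0.153, Ang and Pde3b, and for Il10ra Itm2c, at 0.121, Selplg and Mgat4a. For Stat3 they were Ncaph2, at 0.168, Gtf2f1 and Gm5512, and for Socs3 Snd1, at 0.174, Psme3 and Xpo1. This likeness describes 9 libraries in 3 groups and carries no test.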

How the data were processed

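Libraries of the QuantSeq 3′ kit, each from sorted microglia of 3 pooled mice, were sequenced by the authors as single 75-base reads, aligned with Bowtie2 and counted over genes by bedtools, where both unique and multiple alignments entered. The deposited values are whole-number read counts, not normalized. The submitters' processing notes name mm10. Tool versions, annotation and use of strand are not given in the sources used here. Each library had 23282 entries for 23238 symbols, and 35 repeated symbols were summed.

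Counts were analysed in R 4.3.3 with edgeR 4.0.16. Genes were kept by filterByExpr (minimum count 10, minimum total 15), scaled by TMM and fitted by quasi-likelihood over all 9 libraries with 1 coefficient per group (common biological coefficient of variation 0.519). F-tests were two-sided. Standard errors and 95% intervals come from the coefficients. Intervals and floors (3 counts) of single libraries cover counting error only. The labels number the libraries without saying whether the pools came from separate experiments, so p-values measure only the spread between these libraries. Scripts were tested on simulated data. Rn45s, a ribosomal entry, took 16.0 to 31.0% of counts.

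Alternatives were RLE size factors, library totals alone, all genes with a count, DESeq2 1.42.0, limma-voom (limma 3.58.1), the replicate number as a block, each library left out and, added after the data were seen, the fit without Rn45s. The members and lists were chosen with earlier results of these data known. Named genes are the 9 members, list genes called in any comparison, up to 3 uncalled genes a list with high CPM (some of these are not reported here), and the 3 genes most like each called member. Coordinates are from GENCODE M21 (GRCm38) and promoters from RefSeq. Shared stretches of at least 50 bases and 90% identity were found with BLAST 2.17.0.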

Additional observations from a re-analysis of the deposited data

How the results depend on the processing

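Of the log2 fold changes of members under the alternatives, 374 kept their direction and their side of the threshold, 8 lost their call as given beside each gene, and 2 reversed. In NMO against Normal, Il6st ran from -0.020 (without Normal replicate 2) to 0.34 and Il6 from -0.96 to 0.062 (without NMO replicate 3) when 1 library was left out. Leaving out 1 library gave 1 (without Normal replicate 2) to 4 called members in NMO+CL against Normal, and 0 in both other comparisons. A 1.5-fold change with an unadjusted p under 0.05 gave 1, 3 and 5 members in NMO against Normal, NMO+CL against NMO and NMO+CL against Normal. For the other pathway genes, in the same order, it gave 10, 13 and 21 in place of 0, 4 and 13, and for all genes 979, 1320 and 2472 in place of 61, 196 and 1134. In NMO against Normal, pathway genes called were 2 with library totals alone, 5 with all genes that had a count, 4 with DESeq2, 2 with limma-voom and 0 to 2 without 1 library. All genes called there were 96, 223 and 224 with the first 3 of these, and 20 (without Normal replicate 3) to 75 without 1 library. In NMO+CL against NMO, the filter that kept all genes gave 8 pathway genes and 496 in all, DESeq2 gave 465 in all, and leaving out 1 library gave 0 (without NMO replicate 1) to 4 pathway genes and 51 (without NMO+CL replicate 2) to 231 in all. In NMO+CL against Normal, leaving out 1 library gave 10 to 14 pathway genes and 649 (without Normal replicate 3) to 1263 in all. The cause of these shifts was not tested.

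The replicate numbers share only a number: across genes, the deviations of same-numbered libraries from their group means had correlations of -0.0148 to 0.0302, and those of different numbers -0.0431 to 0.0306. With the replicate number as a block, 0, 0 and 4 members were called in the 3 comparisons, 1, 4 and 14 other pathway genes, and 53, 197 and 1124 genes in all. Depth limits Il6 and Il10 most, with 0 to 62 and 0 to 15 reads per library.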

Other observations

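The 3 NMO libraries ordered the members differently from one another. NMO replicate 3 had the highest Stat3 of its group, at 749 CPM against 465 and 359.6, and the lowest Socs3 (137 CPM), Osm (13.8 CPM), Il6 (0.961 CPM) and Il10rb (73.5 CPM). NMO replicate 2 had the lowest Stat3 and the highest Socs3 (336 CPM), Osm (35.3 CPM), Il6 (7.42 CPM) and Il10rb (111 CPM), and the lowest Il6ra (159 CPM). The summed neutrophil markers of these libraries were 384 CPM in NMO replicate 3 and 102 CPM in NMO replicate 2. In NMO+CL, Stat3 spanned 653 to 773 CPM and Socs3 286 to 386 CPM over the 3 libraries. These orders rest on single libraries and were not tested.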
